A study of Homo sapiens with 2 samples.

Results

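Huh-7 cells, a human hepatocellular carcinoma line, received either the solvent (0.1% DMSO, control) or the amiloride derivative BS008 at 0.1 mM for 24 h, and 1 RNA library was sequenced for each condition. The genes described here encode 10 splicing factors of the serine/arginine-rich (SR) protein group, namely SRSF1, SRSF2, SRSF4, SRSF5, SRSF6, SRSF7, SRSF10, SRSF11, TRA2A and TRA2B. Their exons were taken as the rows that lie inside the hg19 position of each gene on its strand, which gave 81 of the 239322 exon rows in the files. The files list an exon by position and strand with a raw read count and no gene name, so rows are numbered here within each gene from the 5′ end. No difference below has a replicate check, an effect of BS008 and a difference between the cultures or libraries cannot be told apart, and all intervals cover counting error only. Fewer transcripts per cell and fewer cells that use a gene cannot be told apart in such bulk RNA.

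SR proteins bind exonic enhancers through their RNA recognition motifs and recruit the splicing machinery through a domain rich in arginine and serine, whose phosphorylation by SRPK and CLK kinases controls where they are and what they do. Many SR protein genes also control themselves. When the protein is abundant, it promotes the use of an extra exon in its own transcript that brings an early stop codon, a so-called poison exon, and the resulting RNA is removed by nonsense-mediated decay (NMD).

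The libraries held 55476654 counts (control) and 53578432 counts (BS008), so that 3 counts correspond to 5.4e-06% and 5.6e-06% of a library. Mitochondrial rows took 11.8% of the control counts and 13.1% of the BS008 counts. The hepatocyte genes ALB, AFP and APOA1 were read at 274038, 133300 and 28997 counts in control cells and at 308359, 88052 and 21372 counts after BS008, so both libraries carried the markers of the labelled cell type. Of the 81 rows of the SR protein genes, 80 had at least 10 counts in either library and 75 had at least 100. The exception is the outermost 5′ row of SRSF5, with 0 counts in control cells and 2 after BS008.

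The comparison within genes turns on exons of transcripts with an early stop codon, some of which hold that codon and some of which lie elsewhere in such a transcript. Of the 81 rows, 57 had the length of an exon of the same gene in GENCODE release 29 together with a neighbouring row matched in the same transcript. Among these, 9 rows in 5 genes matched an inner exon of a transcript that GENCODE types as nonsense-mediated decay and of no protein-coding transcript. The match used lengths and order, and no position was carried from GRCh38 to hg19. For the 5 rows that hold the stop codon, the part that GENCODE marks as translated is shown, read from the GENCODE transcript 5′ to 3′ with its GRCh38 position, and the capitals mark the early stop codon.
SRSF6 row 3 (chr20:43459153-43459304, plus strand): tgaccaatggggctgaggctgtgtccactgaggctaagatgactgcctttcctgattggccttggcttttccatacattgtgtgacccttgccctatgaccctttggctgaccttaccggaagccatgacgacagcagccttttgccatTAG
SRSF7 row 4 (chr2:38749319-38749346, minus strand): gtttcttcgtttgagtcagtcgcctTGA
TRA2B row 3 (chr3:185931772-185931852, minus strand): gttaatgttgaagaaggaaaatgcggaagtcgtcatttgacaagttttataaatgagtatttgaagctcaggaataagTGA
SRSF10 row 2 (chr1:23978673-23978817, minus strand): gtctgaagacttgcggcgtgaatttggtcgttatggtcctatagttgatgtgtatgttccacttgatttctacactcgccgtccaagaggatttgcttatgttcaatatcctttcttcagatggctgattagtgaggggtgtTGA
SRSF4 row 4 (chr1:29166009-29166064, minus strand): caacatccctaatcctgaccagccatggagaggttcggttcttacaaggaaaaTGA
The SRSF6 exon is read for 149 bases before TAG, the TRA2B exon for 78 bases before TGA and the SRSF7 exon for 25 bases before TGA. In SRSF4 the stop codon is in row 4, after 53 translated bases, and rows 2, 3 and 6 belong to the same NMD transcript. In SRSF10 the stop codon lies near the 3′ end of row 2, and row 3 follows it in the same transcript. Row 2 of SRSF10 is the longer form of an exon that protein-coding transcripts also use, and row 3 of TRA2B overlaps the end of a short transcript typed as protein-coding, so reads of those forms are in these rows as well.

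The SR protein genes were lower in BS008-treated cells. All 10 had a log2 ratio of BS008 to control below 0 when the counts of their rows were summed and scaled to the library total (CPM), and the median of the 10 was -0.68. Of these genes, 5 were at least 1.5-fold lower, where 18.1% of all runs of neighbouring exon rows were, and 3 were at least 2-fold lower, where 6.63% of runs were. None was 1.5-fold higher, against 17% of runs, or 2-fold higher, against 7.84%. The runs stand in for genes, which the files do not name. Run ratios, unlike gene ratios, had 0.5 CPM added in both libraries, which pulls runs with few counts toward 0. Their median log2 ratio was -0.03, and 52.2% of the 11804 runs were below 0.

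SRSF1, the prototype SR protein and a factor in 5′ splice site choice, was lowest relative to control. Its 3 rows (hg19 chr17:56078282-56084707, minus strand) had 21923 counts in control cells and 6558 after BS008, or 70.1 and 21.7 RPKM over the length of all its rows (log2 ratio -1.69, interval -1.73 to -1.65). This is 3.23-fold lower. The 3 rows moved together. Row 1 went from 1947 to 569 counts (log2 ratio -1.68), row 2 from 1309 to 320 (-1.90) and row 3, which spans the 3′ end of the gene as 5053 bases, from 18667 to 5669 (-1.66). Row 2 had the largest fall in its share of the gene, from 5.97% to 4.88%, and row 3 the largest rise, from 85.1% to 86.4%. GENCODE names 1 pseudogene after SRSF1 and 1 after SRSF10, and reads shared with these copies could not be separated.

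SRSF2, which binds exonic enhancers and is known for its role in nuclear speckles, had the highest level over the length of its listed rows in control cells. It was read at 17870 counts in control cells and 8285 after BS008, which is 112 and 53.7 RPKM (chr17:74730199-74733413, minus strand, log2 ratio -1.06, interval -1.10 to -1.02). Row 1 went from 4066 to 1522 counts (log2 ratio -1.35) and row 2 from 13804 to 6763 (-0.98), and the share of row 1 in the gene went from 22.8% (22.1 to 23.4%) to 18.4% (17.6 to 19.2%). Both rows overlap a row of the other strand, over 568 bases in all, which itself went from 6226 to 2879 counts. The sources do not say that strand was kept, so reads of this stretch cannot be assigned to either strand.

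SRSF5 was the third gene past 2-fold, with 7112 and 3380 counts, or 28.9 and 14.2 RPKM (chr14:70193619-70238721, plus strand, log2 ratio -1.02, interval -1.08 to -0.96). It no longer passed 2-fold with TMM factors (-0.97) or median-of-ratios size factors (-0.99), which left 2 such genes. Row 2 (544 and 203 counts, log2 ratio -1.26), row 3 (645 and 265, -1.15), row 4 (404 and 171, -1.08), row 6 (1383 and 498, -1.38) and row 7 (1600 and 735, -1.05) were each at least 2-fold lower. Row 5 was the exception. It has the length of an exon typed as retained intron, 1743 bases, which holds coding exons and the introns between them, and it went from 2536 to 1506 counts (-0.69). Its share of the gene was 35.7% (34.6 to 36.8%) in control cells and 44.6% (42.9 to 46.2%) after BS008, whereas the share of row 6 went from 19.4% to 14.7%.

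TRA2B and TRA2A, the human counterparts of the fly splicing regulator transformer-2, bind GAA-rich enhancers. TRA2B (chr3:185632360-185655924, minus strand) had 17649 counts in control cells and 9797 after BS008, or 36.0 and 20.7 RPKM (log2 ratio -0.80, interval -0.83 to -0.76). Its rows 1 (693 and 318 counts, log2 ratio -1.01), 2 (222 and 57, -1.53) and 4 (1681 and 785, -1.02) were at least 2-fold lower. TRA2A (chr7:23544402-23571656, minus strand) had 3778 and 2123 counts, or 30.4 and 17.7 RPKM (log2 ratio -0.78, interval -0.86 to -0.70), and was the gene with the fewest counts. With the median of its row log2 ratios in place of the summed counts, TRA2A was at -0.56 and no longer passed 1.5-fold, which left 4 such genes. Within TRA2A, row 6 (766 and 284 counts, -1.30) and row 7 (452 and 194, -1.07) were at least 2-fold lower. Row 6 went from 20.3% (19.0 to 21.6%) to 13.4% (12 to 14.9%) of the TRA2A counts, and the 3′ row 10 had the largest rise in share, from 23.0% to 26.9%.

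The other 5 genes were less than 1.5-fold lower. SRSF4 had 7692 and 5007 counts, or 42.6 and 28.7 RPKM (chr1:29474251-29508637, minus strand, log2 ratio -0.57, interval -0.62 to -0.52). SRSF7, an SR protein with a zinc knuckle that also acts in mRNA export, had 9151 and 6278 counts, or 56.2 and 39.9 RPKM (chr2:38970743-38978636, minus strand, log2 ratio -0.49, interval -0.54 to -0.45). SRSF6 had 17157 and 12512 counts, or 77.1 and 58.2 RPKM (chr20:42086504-42092242, plus strand, log2 ratio -0.41, interval -0.44 to -0.37). In these 3 genes, as in SRSF10 and TRA2B, single rows went against the whole gene, as given further on. SRSF1 and SRSF2, listed with 3 and 2 rows, had no row that went against the whole gene. With so few rows, the values of a row and of the rest of its gene are closely tied. SRSF11, an SR-related protein, had 13890 and 11189 counts, or 43.5 and 36.3 RPKM (chr1:70671365-70717683, plus strand, log2 ratio -0.26, interval -0.30 to -0.23). SRSF10, which represses splicing when it is dephosphorylated, was closest to control, with 9860 and 9188 counts, or 38.5 and 37.1 RPKM (chr1:24292939-24306821, minus strand, log2 ratio -0.05, interval -0.09 to -0.01). For SRSF10 the offset was as small as that between scalings of the libraries, since TMM factors gave a log2 ratio of -0.0024.

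**Figure D1:**
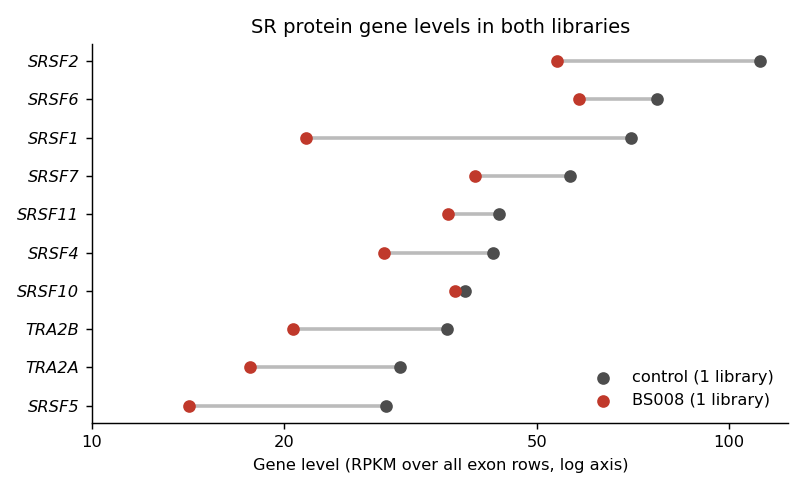
Level of each SR protein gene in RPKM over all its exon rows (log x axis) in the control library (grey) and the BS008 library (red), ordered by the control level. SRSF2 is at the top with 112 and 53.7 RPKM, SRSF1 has the widest gap with 70.1 and 21.7 RPKM, and the points of SRSF10 lie beside each other at 38.5 and 37.1 RPKM.

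By level per length, the order in control cells was SRSF2, SRSF6, SRSF1, SRSF7, SRSF11, SRSF4, SRSF10, TRA2B, TRA2A and SRSF5. After BS008, SRSF6 was at the top with 58.2 RPKM, ahead of SRSF2 with 53.7, and SRSF1 was in the seventh place with 21.7 RPKM, beside TRA2B with 20.7. Whether such neighbours differ could not be judged without a second library. The order also depends on which rows are listed, since long rows with few reads lower the value of a gene. In control cells, TRA2B had 476 RPKM in row 7 but 1.34 in its row 2 of 2992 bases. The rows of SRSF2 had 138 and 106 RPKM, and row 6 of SRSF5, the gene in last place, had 225.

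At the level of single rows, 15 of the 80 rows with at least 10 counts (18.8%) were at least 2-fold lower after BS008, against 3.79% of all exon rows in the files, and 1 row was at least 2-fold higher (1.25% against 3.73%). The 15 rows lie in 6 genes and are all named above except row 2 of SRSF6. Rows of a gene share its overall change, so the rows are not separate observations and partly repeat the gene values. Rows with many reads pass a fold limit more easily, because the pseudocount of 0.5 CPM pulls low counts to 0. Among rows with at least 100 counts, 15 of 75 were 2-fold lower (20.0%, against 6.19% of all such rows) and 1 was 2-fold higher (1.33%, against 5.34%). At a limit of 1.5-fold, 33 of these 75 rows were lower (44.0%, against 19.5%) and 4 were higher (5.33%, against 13.5%). The log2 ratio was below 0 for 68 of the 80 rows, with a median of -0.48, where all exon rows tested had a median of -0.04.

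The rows of NMD exons stood apart from the other rows of their own genes. They were grouped in this way after the values had been seen, so their counts describe these rows and have no test. Nor are they separate observations. Rows 2, 3, 4 and 6 of SRSF4 are exons of the same NMD transcript, and so are rows 2 and 3 of SRSF10. Of the 9 rows, 8 had a log2 ratio above 0, while none of the other 36 rows of these 5 genes did. Among the 8, the counting interval included 0 for SRSF4 row 3 (-0.45 to 0.71), SRSF10 row 2 (-0.004 to 0.29) and TRA2B row 3 (-0.02 to 0.49). All exon rows tested had a median log2 ratio of -0.04. The median log2 ratio was 0.47 for the NMD rows and -0.54 for the other 71 rows of the 10 genes. These 71 rows include genes without an NMD row, among them SRSF1, SRSF2 and SRSF5, so differences between genes enter this contrast. The summed counts of the 9 rows went from 3018 in control cells to 4926 after BS008.

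To compare a row with its own gene, the ratio of the row was divided by that of the rest of the gene, a measure that does not depend on how the libraries are scaled. It was above 0 on the log2 scale for 9 of 9 NMD rows (median 1.27, range 0.21 to 1.84), and for 29 of the 71 others (median -0.04, range -1.12 to 0.94). Rows of a gene cannot all lie above the rest, and a rise in a row lowers this measure for the other rows. The values of both groups are therefore tied to each other. At least 2-fold on this measure were 6 of the 80 rows (7.50%), all of them NMD rows. Across the files 5.07% of rows were 2-fold higher than the rest of their run, so the share over all rows of these genes is near the background. At least 2-fold lower than the rest of their gene were 2 rows (2.50%, against 4.18%), namely row 2 of SRSF6 and row 2 of TRA2B.

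In SRSF10, row 3 (hg19 chr1:24304401-24304763, 363 bases) had 530 counts in control cells and 1420 after BS008, which is 26.3 and 73.0 RPKM. With the pseudocount of 0.5 CPM, it is the 1 row that was at least 2-fold higher (log2 ratio 1.43). Its share of the gene was 5.38% (4.95 to 5.84%) and 15.5% (14.7 to 16.2%), and relative to the rest of the gene it was 3.22-fold higher (log2 1.69, interval 1.54 to 1.84). Row 2, with the early stop codon, had 749 and 798 counts (log2 0.21 relative to the rest, interval 0.06 to 0.36). The rest of SRSF10 without row 3 had a log2 ratio of -0.21. The largest fall in share was in row 7, the longest row of the gene, from 22.4% to 16.2%, while row 8 at the 3′ end kept 28.4% in both libraries.

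In SRSF6, row 3 (chr20:42087793-42088060, 268 bases, the exon with the TAG codon above) had 672 and 1207 counts, or 45.2 and 84.1 RPKM (log2 ratio 0.87). Its share went from 3.92% (3.64 to 4.22%) to 9.65% (9.14 to 10.2%), and it was 2.62-fold higher than the rest of the gene (log2 1.39, interval 1.25 to 1.53). The row before it, row 2, had 753 and 275 counts (log2 ratio -1.32) and the row after it 1334 and 1133 (-0.18). The last row, 7, had the largest fall in share, from 65.1% to 62.0%.

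In SRSF7, row 4 (chr2:38976040-38976488, minus strand, 449 bases) had 609 and 919 counts, or 24.4 and 38.2 RPKM (log2 ratio 0.62). The other 8 rows had log2 ratios between -0.83 and -0.33. The share of row 4 was 6.66% (6.16 to 7.18%) in control cells and 14.6% (13.8 to 15.5%) after BS008, 2.41-fold higher than the rest (log2 1.27, interval 1.11 to 1.42). Row 3, upstream of it, had the largest fall, from 28.4% (27.5 to 29.3%) to 22.3% (21.3 to 23.4%).

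In TRA2B, row 3 (chr3:185649365-185649640, minus strand, 276 bases) had 238 and 271 counts, or 15.5 and 18.3 RPKM, while the rest of the gene had a log2 ratio of -0.82. It was 2.08-fold higher than the rest of the gene (log2 1.06, interval 0.80 to 1.31), with a share of 1.35% (1.19 to 1.53%) in control cells and 2.77% (2.46 to 3.11%) after BS008. Row 2 beside it went the other way. It has the length of an exon typed as retained intron, 2992 bases, that lies outside all protein-coding transcripts, and relative to the rest of the gene its log2 value was -1.12 (interval -1.54 to -0.70).

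In SRSF4 the NMD rows had few reads. Row 2 had 71 and 60 counts, row 3 had 51 and 54, row 4 had 40 and 64, and row 6 had 58 and 133. The log2 ratio of row 6 was 0.95 with the pseudocount, just short of 2-fold, and 1.25 without it (interval 0.79 to 1.72). Relative to the rest of the gene, row 6 was 3.59-fold higher (log2 1.84, interval 1.40 to 2.29) and row 4 was 2.48-fold higher (log2 1.31, interval 0.74 to 1.88). For row 3 the value was 0.71 (0.15 to 1.26), and for row 2 it was 0.38, with an interval of -0.12 to 0.88 that includes 0. Row 6 had the largest rise in share, from 0.754% to 2.66%, and row 9 the largest fall, from 10.7% to 8.35%.

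**Figure D2:**
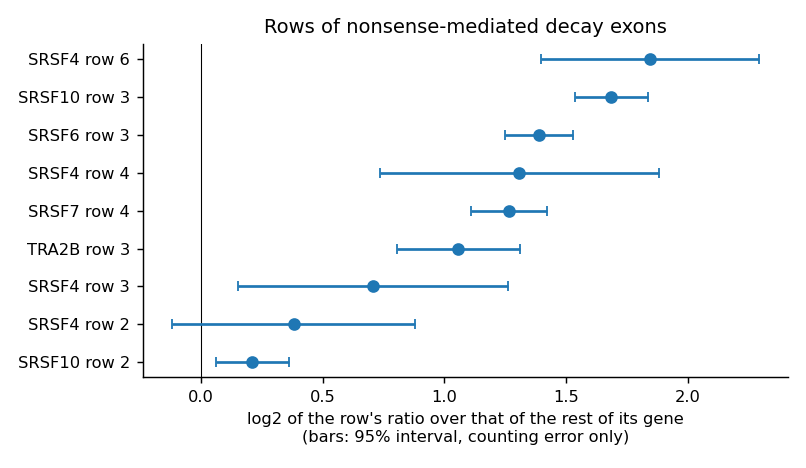
Log2 of the ratio of each NMD row over that of the rest of its gene (x axis), with 95% intervals for counting error, for the 9 rows. All points lie above 0, from 0.21 (SRSF10 row 2) to 1.84 (SRSF4 row 6), and 8 of the 9 intervals exclude 0.

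SRSF1, SRSF2, SRSF5, SRSF11 and TRA2A had no row of this kind, which does not show that they lack such an exon. In SRSF1 and SRSF2 the 3′ part of the gene is listed as a single long row, so exons and introns within it cannot be separated. The rows of SRSF11 had log2 ratios from -0.56 in row 11 to 0.13 in the last row, 14. That row had 2194 and 2315 counts, and its share went from 15.8% to 20.7%, the largest rise in the gene, while row 11 had the largest fall, from 10.9% to 8.84%. In all, 4 rows of the 81 gained at least 5 percentage points of their gene's counts (SRSF10 row 3, SRSF5 row 5, SRSF7 row 4 and SRSF6 row 3), and 3 lost as much (TRA2A row 6, SRSF10 row 7 and SRSF7 row 3). These are 5.0% and 3.75% of the 80 rows with at least 10 counts. Of all such rows in runs, 3.52% gained and 3.36% lost as much of the counts of their run, so the shares of rows are near the background, although a run can hold more than 1 gene.

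**Figure D3:**
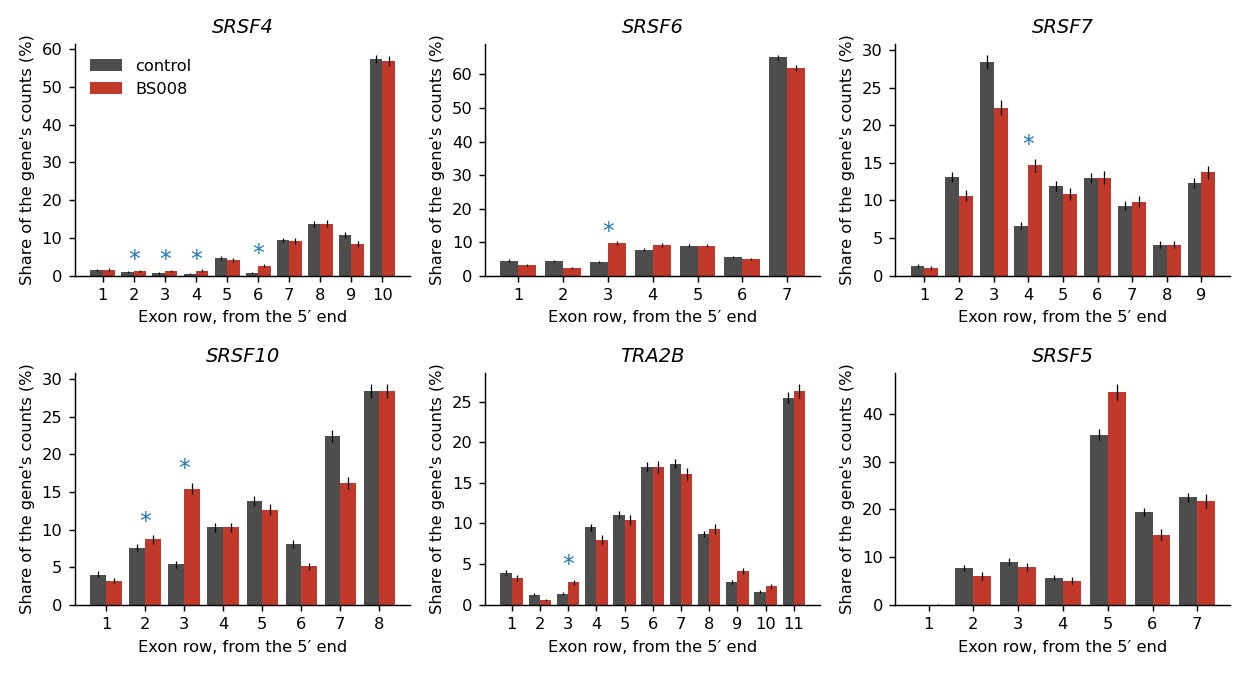
Share of each exon row in the counts of its gene (y axis, %) by row number from the 5′ end (x axis), in control cells (grey) and after BS008 (red), with 95% Wilson intervals; a star marks NMD rows. The stars stand over rows whose red bar is above the grey bar, such as SRSF10 row 3 at 5.38% and 15.5%, and SRSF5 has no star but a higher red bar at row 5.

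Each row was also compared only with the nearest row on either side, a measure that can be computed for rows of any gene. Of 60 rows with a neighbour within 10 kb on both sides and at least 20 reads in each library, 7 gained at least 10 percentage points (11.7%, against 3.16% of all rows) and 5 lost as much (8.33%, against 2.85%). The gains were in SRSF6 row 3 (24.4% to 46.2%), SRSF10 row 3 (23.1% to 44.9%), SRSF7 row 4 (14.2% to 30.6%), TRA2B row 3 (11.1% to 24.3%), rows 4 and 6 of SRSF4 and row 5 of SRSF5. Of the 8 NMD rows with this measure, 6 were among them, while SRSF10 row 2 and SRSF4 row 3 (31.5% to 30.3%) were lower. The losses were in rows that lie next to these, namely SRSF4 row 5 (78.2% to 51.2%), SRSF6 row 2 (34.3% to 14.5%), SRSF7 row 3, TRA2B row 2 and SRSF10 row 2, which is itself an NMD row (44.7% to 31.8%). Because a gain in a row is a loss for its neighbours, the gains and losses are not separate events.

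For the other SR protein genes and the kinases that phosphorylate SR proteins, 9 genes were taken by their hg19 positions, and 90 of their 108 rows had the length of a GENCODE exon of the gene. At least 1.5-fold higher were 5 genes (against 17% of runs), which are CLK1 (2404 and 4821 counts, log2 ratio 1.05), CLK2 (2461 and 4593, 0.95), CLK3 (2767 and 6233, 1.22), CLK4 (890 and 1303, 0.60) and SRSF12, a gene with few reads (154 and 335, 1.17). Of these 5 genes, 3 were at least 2-fold higher, against 7.84% of runs. SRPK1 was at least 1.5-fold lower (9062 and 5540 counts, -0.66), where 18.1% of runs were. SRSF3 (17190 and 16123 counts, -0.04), SRSF9 (6166 and 4770, -0.32) and SRPK2 (2514 and 2664, 0.13) lay within 1.5-fold as whole genes. Single rows of this list, named here after their values were seen, moved in either direction. SRSF3 row 4 (hg19 chr6:36567598-36568658), which has the length of an exon typed as retained intron outside protein-coding transcripts, had 443 and 3136 counts (log2 ratio 2.80) and was 9.13-fold higher than the rest of SRSF3, more than any row of the 10 genes. SRSF3 row 4 was not counted as an NMD row, since its length matched only the retained intron exon. The rows before and after it also match an SRSF3 transcript typed as nonsense-mediated decay. An NMD exon inside row 4 would therefore be missed by this match. Of the 3 rows of the list that matched an NMD exon, all in CLK4, 1 had at least 10 counts. That row, CLK4 row 4, had 59 and 27 counts and was lower than the rest of CLK4 (log2 -1.75, interval -2.42 to -1.08). All 4 CLK genes as a whole lay above 0, while the 10 SR protein genes of the main set lay below it, SRSF10 only just. The split did not hold for the whole list, since the SR protein gene SRSF12 lay above 0 and the kinase gene SRPK1 below it.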

How the data were processed

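RNA libraries of Huh-7 cells were made with an Illumina mRNA-seq kit, 1 library for each condition. For each library, the authors' file gives whole read counts for 239322 exons, not normalized. The authors also deposited RPKM values, which recomputation from the counts, exon lengths and library totals returned to within 4.7e-06. The submitters' processing notes name hg19. The aligner, counting tool and annotation are not given in the sources used here.

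Member rows were those inside the hg19 windows of the 10 genes. The members and lists were chosen with earlier results of these data known, and the grouping of NMD rows was made after their values were seen. Counts were divided by library totals (CPM), with a pseudocount of 0.5 for single rows and runs and none for summed genes. No test was made, as 1 library for each condition gives no spread. The samples were grouped by their treatment labels, although a protocol label that both samples share names BS008 only. Intervals are 95%, exact Clopper-Pearson for gene ratios, Wilson for shares and Woolf for a row against the rest of its gene. Runs join rows of a strand with gaps under 10 kb (at least 3 rows and 100 counts). Named were all genes, the row with the largest rise and fall in share of each gene, and rows at least 2-fold changed with at least 100 counts. Alternatives were other scalings, pseudocounts, minimums, limits and distances. Exon types and sequences came from GENCODE 29 (GRCh38). Python 3.11.15, numpy 2.4.6, pandas 2.3.3, scipy 1.17.1, and TMM factors from edgeR 4.0.16 in R 4.3.3 were used.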

Additional observations from a re-analysis of the deposited data

How the results depend on the processing

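Scaling moved each log2 ratio by 0.05 with TMM factors, 0.03 with median-of-ratios size factors and 0.02 without mitochondrial exons, and no gene changed sign. SRSF5 was 2-fold lower with the library totals only just, and 2 genes were 2-fold lower with TMM or median-of-ratios factors. With the median of row log2 ratios, 4 genes were 1.5-fold lower, without TRA2A. Of 50 counts and percents recomputed, 36 stayed within 1.5 times. Member rows at least 2-fold lower were 15, and 11 with a pseudocount of 1, 12 with TMM factors and 13 with median-of-ratios factors. Member rows at 1.5-fold were 33 lower and 4 higher. At 2-fold, a pseudocount of 0.1 gave 15 lower and 2 higher. Rows that gained share were 1 at 10 percentage points and 9 at 2 points, and those that lost it were 0 and 12, or 6 with shares of RPKM. With neighbours within 1 kb, which left 21 rows, 4 gained and 2 lost 10 points. Over all rows, 8.52% were 2-fold lower and 8.73% higher with a pseudocount of 0.1, and 2.30% in either direction with 1. Of 59 values of single genes, 45 stayed within their counting intervals and 14 moved. With rows outside protein-coding transcripts in place of NMD rows, a choice made after seeing the data, 7 of 8 were above the rest of their gene. These 7 are NMD rows already counted, so this is not a separate check. TRA2B row 2, the only row that is not an NMD row, was the exception. SRSF2 has no value without overlapping rows. No paired analysis was possible because each condition has 1 library, and no replicate could be left out. More reads would not show how much cultures vary, and the SRSF4 NMD rows rest on 40 to 133 counts each.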
